A study of Homo sapiens with 15 samples.

Results

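HOX genes encode homeodomain transcription factors that set position along the body axis, and they lie in 4 clusters named HOXA, HOXB, HOXC and HOXD. Within a cluster the genes follow each other in the order of their numbers, and a number marks a paralog group, the copies of one ancestral gene in different clusters. Low numbers act toward the head and high numbers toward the tail. Fibroblasts in culture keep the HOX pattern of the body site they were taken from, and lung fibroblasts are known for the anterior and middle genes of the HOXA and HOXB clusters. Polycomb complexes keep silent HOX genes repressed, trithorax proteins keep active ones on, and retinoic acid induces the 3′ ends of the clusters.

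The levels of 38 HOX genes were followed in RNA sequencing counts of MRC-5 cells, primary fibroblasts of human fetal lung. They are protein-coding genes of the count table whose GENCODE symbol is HOXA, HOXB, HOXC or HOXD followed by a number, 38 genes described of 57272 in all, and naming by symbol used no measured value. The 15 libraries came from 5 conditions with 3 replicates each. Young cells at PD 30 (population doubling) carried an empty GFP vector, or a vector that overexpresses the shelterin protein TRF2 (gene TERF2), or the empty vector with siLMNB1, an siRNA against the nuclear lamina gene LMNB1. The column names place a control siRNA in every group but the one with siLMNB1. Senescent cells carried the empty vector and were taken at PD 71, or had received the TRF2 vector well before senescence and were taken at PD 75. All cells were kept at 5% oxygen. TRF2 came from a lentivirus and not from the cell's own gene, and all libraries came from a single cell line. The study calls the replicates of senescent and young cells biological without saying how cultures were kept apart, and p-values measure the spread between these samples. The labels mark all 6 senescent libraries as reanalysed from an earlier deposit, so senescence and deposit cannot be told apart, and among senescent cells neither can TRF2 and the later PD. By the paper, young cells had the TRF2 vector for days and senescent cells for many population doublings. Young and senescent cells with TRF2 thus also differ in their time with it.

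Total counts per library ranged from 26725885 to 43116046. LMNB1 fell by 4.48 on the log2 scale with siLMNB1, and TERF2 was 3.03 higher on that scale with TRF2 in young cells and 3.23 higher in senescent cells. The 10 fibroblast markers summed to between 20200 and 33700 CPM (counts scaled to library size, TMM-normalized) in every library. The blood cell markers PTPRC, CD3E, HBA1 and LYZ had at most 10 counts in every library, whereas CD14 had up to 110 counts and was higher in senescent cells, by 3.64 on the log2 scale with the empty vector and 4.01 with TRF2. The 6 epithelial markers summed to between 0.855 and 2.2 CPM, apart from 9.87 CPM in replicate 1 of the young cells with the empty vector, where the keratin gene KRT5 had 209 counts. The 5 endothelial markers summed to between 23.9 and 70.9 CPM, nearly all from TEK, and PECAM1 and CDH5 had at most 12 counts. In senescent libraries, levels leaned toward GC-rich genes by 0.46 to 0.823 on the log2 scale per 10 points of GC content, and in young libraries by -0.00633 to 0.134. Replicate 3 of the senescent, empty-vector group had the 0.823 and stood apart from the 5 other senescent libraries, which reached at most 0.506. The median GC content of exons was 54.5% in the HOX genes tested and 47.6% in all genes tested, so each HOX result between senescent and young cells is also given with offsets for GC content and for exon length where these change a call or a direction. A gene entered the test with at least 10 counts at the median library size in 3 or more libraries, and 16 of the 38 members did. In bulk RNA, fewer cells that express a gene and less RNA per cell cannot be told apart.

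MRC-5 cells expressed the HOXB cluster most, the HOXA and HOXC clusters at a low level, and hardly any HOXD. The cluster HOXB (chr17:48528526-48728750 in GRCh38, minus strand) supplied 85.0% to 95.1% of all normalized HOX counts, depending on the condition. In young cells with the empty vector the HOXB genes summed to 152 CPM ± 3.82, the HOXA genes (chr7:27100354-27200091, minus strand) to 11.9 CPM ± 1.72, and the HOXC genes (chr12:53938831-54056030, plus strand) to 4.62 CPM ± 0.523 (SD, n = 3). The 9 HOXD genes (chr2:176092721-176190907, plus strand) had 4 counts in all 15 libraries together, 2 each for HOXD8 and HOXD11, all in replicate 2 of the senescent cells with TRF2. The limit that a count of 0 allows, 3 counts, was worth 0.0659 to 0.112 CPM in a library, for counting error only.

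Of the 10 HOXA genes, HOXA2, HOXA3, HOXA4, HOXA5 and HOXA7 were tested. Of the 10 HOXB genes, HOXB2 to HOXB8 were tested, 7 in all. Of the 9 HOXC genes, HOXC4, HOXC6, HOXC8 and HOXC9 were tested, and of the HOXD genes 0. HOXC4, HOXC6 and HOXC9 passed the minimum only through young libraries, so these 3 had to be lower in senescent cells to the extent that they differed, and counts over the tested genes are given as a description. The other 13 also reached the minimum in 3 or more senescent libraries. Of the 22 members not tested, 12 had 0 counts in every library, namely HOXA13, HOXB1, HOXC10, HOXC11, HOXC12, HOXD1, HOXD3, HOXD4, HOXD9, HOXD10, HOXD12 and HOXD13. The remaining 10 were HOXA6, HOXA9, HOXA10, HOXA11, HOXB9, HOXB13, HOXC5, HOXC13, HOXD8 and HOXD11, of which HOXA9 reached the highest count with 13. The members of paralog groups 9 to 13, the posterior genes, summed to at most 0.645 CPM ± 0.194 in any condition (mean and SD, n = 3). The highest-numbered gene tested was HOXB8 in HOXB, HOXA7 in HOXA, which has no gene of group 8, and HOXC9 in HOXC. Levels also fell at lower numbers. In young cells with the empty vector HOXA5 held 4.29 CPM per kb of exon and HOXA6 0.0562. Other genes share 40.1% of the exonic bases of HOXA6, and its level per kb may be too low if their reads were lost. HOXB7 held 11.0 and HOXB8 0.874, and HOXC8 held 1.23 and HOXC9 0.194.

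**Figure D1:**
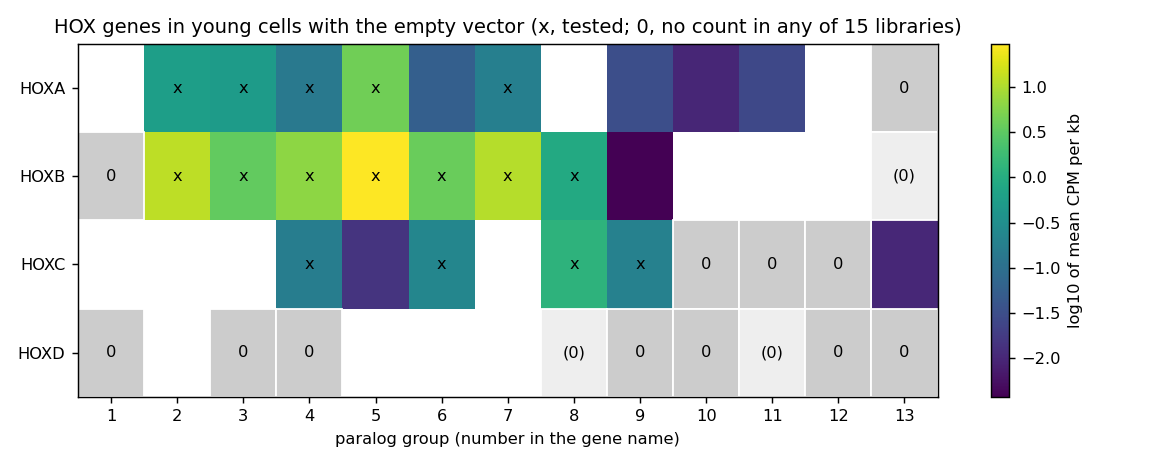
Mean level of each HOX gene in young cells with the empty vector, as log10 of CPM per kb of exon, by cluster (rows) and paralog group (columns). A 0 marks genes without a count in any library, (0) marks genes with counts in other conditions only, x marks the 16 genes tested, and blank cells hold no gene described. HOXB2 to HOXB7 and HOXA5 are brightest, and the HOXD row has no level above 0.

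Levels of different genes were compared per kb of exon. In young cells with the empty vector HOXB5 led with 29.5 CPM per kb ± 1.99 (SD, n = 3), followed by HOXB2 with 12.0 ± 0.677, HOXB7 with 11.0 ± 0.849, HOXB4 with 6.48 ± 0.0576 and HOXA5 with 4.29 ± 0.443. HOXB2 and HOXB7 lay within their spread of each other, and the other neighbours in that order did not. HOXA5, known for its role in lung development, was the highest gene outside HOXB. HOXB5 is known for airway branching in the developing lung. HOXC8 led the HOXC cluster with 1.23 CPM per kb ± 0.0592, while HOXC6, HOXC9 and HOXC4 had 0.233 ± 0.0734, 0.194 ± 0.11 and 0.169 ± 0.116, which did not differ beyond their spread.

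The first comparison asked how HOX levels in senescent cells differ from those in young cells when both carry the empty vector. HOXB genes from HOXB2 to HOXB6 were higher in senescent cells, HOXB8, HOXC4, HOXC8 and HOXC9 were lower, and HOXA genes did not pass the test. HOXB4 did not pass it with the offsets for GC content and exon length. With edgeR's quasi-likelihood test and Benjamini-Hochberg adjustment over 15799 genes, a gene was called if its adjusted p was below 0.05 and its log2 fold change reached 1 in either direction. HOXB6 was called higher, against 16.7% of all genes tested, and HOXB8, HOXC4, HOXC8 and HOXC9 were called lower, against 11.8% of all genes. The share of the 16 HOX genes called lower was 25.0%. Of the genes called lower, HOXC4 and HOXC9 had entered the test through young libraries alone. Of the 13 HOX genes that also reached the minimum in senescent libraries, 2 (HOXB8 and HOXC8) were called lower, 15.4%. With no fold threshold, 5 HOX genes were higher (31.2%), against 32.7% of all genes, and 4 were lower (25.0%), against 31.9%. As a set the HOX genes thus passed the test no more often than all genes. The median log2 fold change was 0.76 over the tested HOXB genes and 0.01 over HOXA, beside 0.02 over all genes tested.

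HOXB6 showed the largest rise of the cluster. Its libraries held 10.4, 9.63 and 9.9 CPM in young cells with the empty vector and 24.5, 31.4 and 40.2 CPM in senescent cells with it. Every senescent library thus lay above every young one, as in 31.9% of all genes. The rise was 1.68 on the log2 scale (SE 0.17, adjusted p = 3.5e-07 by edgeR's quasi-likelihood test), and 1.30 with the offsets. Of the exonic bases of HOXB6, 32.9% overlap other genes. The strand setting of the counts is not stated, so it is not known how reads from these bases were counted or whether they were lost.

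HOXB5 held 50.8, 55.6 and 58.1 CPM in young cells and 68.2, 99.3 and 114 CPM in senescent cells, a difference of 0.78 on the log2 scale (SE 0.14, adjusted p = 0.00012) that stayed under the fold threshold. Again no library of one group reached into the other. HOXB2 held 28.6, 28.5 and 31.4 CPM against 38.6, 45.4 and 53.8 CPM, which is 0.64 higher (SE 0.11, adjusted p = 0.00014). HOXB2 takes part in hindbrain patterning. HOXB3 was 0.86 higher (SE 0.15, adjusted p = 0.00011), with young libraries between 23.2 and 29.7 CPM and senescent libraries between 39.7 and 61.0 CPM. HOXB4, known from blood stem cells, held 13, 13 and 12.8 CPM against 15.7, 24.8 and 25.5 CPM, a difference of 0.76 (SE 0.16, adjusted p = 0.00054). For these 4 genes the adjusted p was from edgeR's quasi-likelihood test, and the groups did not overlap, as for 31.9% of all genes in the same direction. With these offsets the differences of HOXB5 and HOXB4 fell to 0.39 (adjusted p = 0.00226) and 0.19 (adjusted p = 0.268), HOXB2 was at 0.39 and HOXB3 at 0.69. The median of the HOXB genes was then 0.39.

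Replicate 1 of the senescent, empty-vector group was the lowest of its group for HOXB2, HOXB4, HOXB5, HOXB6 and HOXB8. The HOXB genes summed to 203 CPM in that library and to 277 and 297 CPM in replicates 2 and 3, beside 149 to 156 CPM in the young libraries with the empty vector. Without it HOXB6 was 1.84 higher and HOXB5 0.95 higher. Over the 6 fits that leave out 1 library, the rise of HOXB6 ranged from 1.47 to 1.84.

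HOXB7 and HOXB8, at the 5′ end of the expressed stretch, did not follow HOXB2 to HOXB6. HOXB7 held 15.2, 17.7 and 17.0 CPM in young cells and 15.2, 14.5 and 22.1 CPM in senescent cells (log2 0.05, SE 0.14, adjusted p = 0.768), so the groups overlapped. With the offsets HOXB7 was at -0.13 and did not pass the test either. HOXB8 fell from 1.6, 2.32 and 2.38 CPM to 0.669, 1.07 and 1.13 CPM, by 1.12 on the log2 scale (SE 0.30, adjusted p = 0.00389), and by 1.63 with the offsets. Without replicate 1 of the senescent cells its difference was -0.93 (adjusted p = 0.0164), under the fold threshold.

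**Figure D2:**
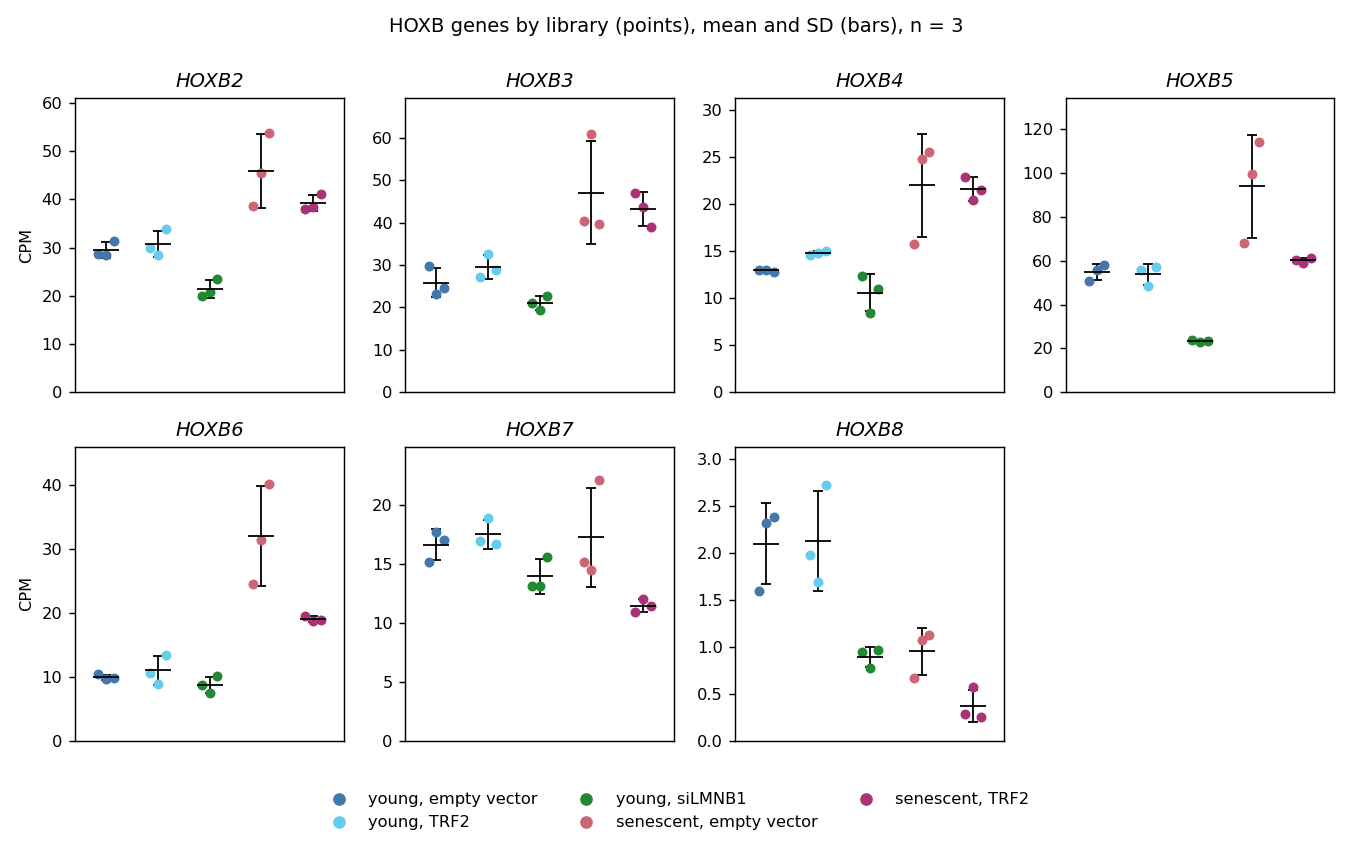
CPM (TMM-normalized) of the 7 tested HOXB genes in each library, by condition. Points are libraries, and bars are mean and SD of 3. HOXB2 to HOXB6 lie higher in senescent than in young cells with the empty vector, HOXB8 lies lower, and HOXB5 is lowest with siLMNB1.

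The HOXC genes are known for thoracic and limb levels of the axis. HOXC8 held 3.0, 3.11 and 2.83 CPM in young cells with the empty vector (86, 106 and 76 counts) and 0.93, 0.444 and 0.551 CPM in senescent cells (25, 12 and 17 counts). The groups did not overlap, as in 32.8% of all genes in that direction, and the fall was 2.22 on the log2 scale (SE 0.30, adjusted p = 8e-06 by edgeR's quasi-likelihood test). No exonic base of HOXC8 is shared with another gene. HOXC4 held 3, 24 and 16 counts in young cells and 3, 1 and 1 in senescent cells, so replicate 1 of the young group did not stand above the senescent group in counts. It fell by 2.92 on the log2 scale (SE 0.83, adjusted p = 0.00584 by edgeR). HOXC9 held 12, 15 and 3 counts against 0, 2 and 4, and its groups overlapped (log2 -2.17, SE 0.75, adjusted p = 0.0211 by edgeR). HOXC9 was not called in 4 of the 6 fits that leave out 1 library, where its adjusted p ranged from 0.0088 to 0.0807. Without replicate 1 of the young, empty-vector group, the library with KRT5 counts, HOXB6, HOXB8, HOXC4 and HOXC8 stayed called. HOXC6 held 29, 30 and 14 counts against 17, 6 and 9 (log2 -1.08, SE 0.47, adjusted p = 0.0531 by edgeR) and was not called. With the offsets HOXC6 was called lower (log2 -1.25, adjusted p = 0.0337 by edgeR). Other genes overlap 17.5% of the exonic bases of HOXC4, 16.1% of those of HOXC6 and 9.78% of those of HOXC9. In a fit of only the libraries compared, HOXC4 and HOXC9 did not enter the test, and HOXC8 stayed called (adjusted p = 0.00057 by edgeR).

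**Figure D3:**
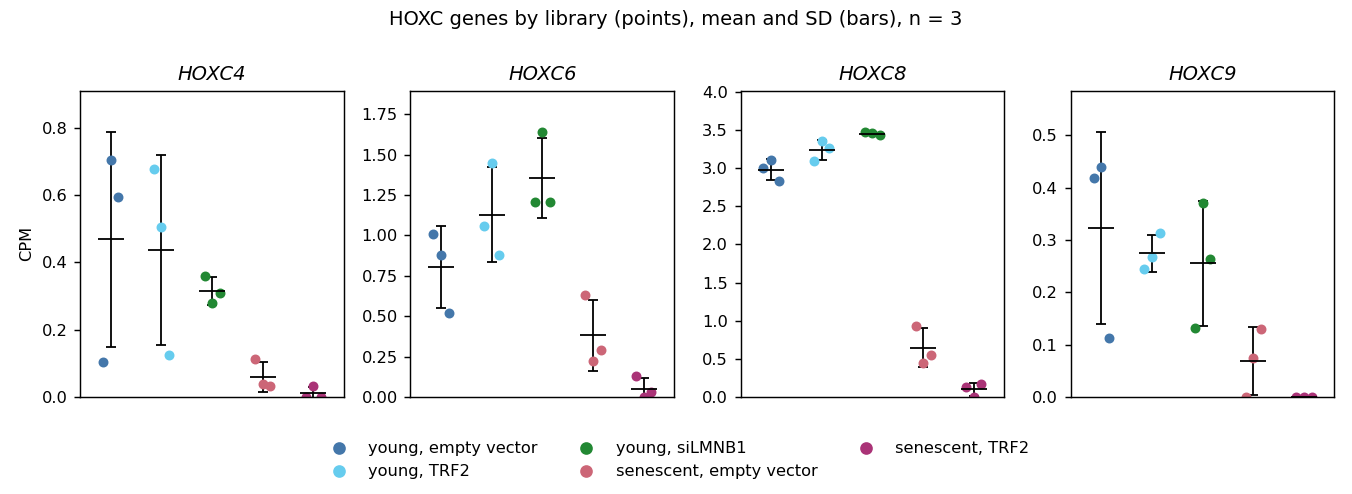
CPM (TMM-normalized) of the 4 tested HOXC genes in each library, by condition. Points are libraries, and bars are mean and SD of 3. The 9 young libraries of HOXC8 sit between 2.83 and 3.47 CPM, the senescent ones with the empty vector between 0.444 and 0.93, and those with TRF2 at or under 0.171.

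No HOXA gene passed the test. HOXA5 held 8.16, 6.64 and 7.37 CPM in young cells and 6.62, 7.15 and 8.49 CPM in senescent cells (log2 0.01, SE 0.13, adjusted p = 0.951 by edgeR), and it lay between 6.13 and 9.37 CPM over all 15 libraries. With the offsets HOXA5 was at -0.05. The groups of HOXA2 did not overlap, as in 32.8% of all genes in that direction (log2 -0.57, SE 0.29, adjusted p = 0.1 by edgeR). HOXA3 was at 0.31 (SE 0.19), HOXA4 at 0.93 (SE 0.69) and HOXA7 at -0.57 (SE 0.48). HOXA3 was at -0.22 with the offsets, so its direction depended on them. The HOXA sum was 11.9 CPM ± 1.72 in young and 12.1 CPM ± 1.3 in senescent cells with the empty vector (SD, n = 3).

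The same question was asked of cells that overexpress TRF2. HOXB8 and the 4 tested HOXC genes were called lower in senescent than in young cells with TRF2, 5 of 16 (31.2%) beside 12.1% of all genes, and 0 HOX genes were called higher, beside 11.9%. Of these 5, HOXC4, HOXC6 and HOXC9 had entered the test through young libraries alone, and of the 13 other genes tested 2 (HOXB8 and HOXC8) were called lower, 15.4%. At the adjusted p alone, 4 were higher and 6 lower, beside 28.2% and 30.1% of all genes. In a fit of only the libraries compared the median over the tested HOX genes was 0.15, and in the fit of all libraries it was -0.17, since 2 fewer HOX genes entered the former. The young and senescent libraries with TRF2 are not those of the comparison above, so each stands on its own samples.

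HOXC8 held 114, 113 and 104 counts in young cells with TRF2 and 4, 0 and 6 counts in senescent cells with TRF2, or 3.1, 3.35 and 3.26 CPM against 0.127, 0 and 0.171 CPM. The fall was 4.94 on the log2 scale (SE 0.39, adjusted p = 1.8e-08 by edgeR's quasi-likelihood test). HOXC6 held 39, 49 and 28 counts against 4, 0 and 1, a fall of 4.37 (SE 0.61, adjusted p = 1.3e-05 by edgeR). HOXC4 held 25, 17 and 4 counts against 0, 1 and 0. The ratio of its summed counts, 46 to 1 and scaled by library size, was 44 with an exact 95% interval from 7.51 to 1770 for counting error. HOXC9 held 9, 9 and 10 counts in young cells and 0 in each senescent library, which makes it at least 8.92-fold lower when the senescent group is put at 3 counts. In these 4 genes no senescent library reached a young one, as in 36.6% of all genes in that direction.

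HOXB8 held 1.98, 1.69 and 2.72 CPM in young and 0.287, 0.573 and 0.256 CPM in senescent cells with TRF2, a fall of 2.51 on the log2 scale (SE 0.33, adjusted p = 7.4e-06 by edgeR). HOXB7 held 16.9, 18.9 and 16.7 CPM against 10.9, 12.0 and 11.4 CPM (log2 -0.61, SE 0.14, adjusted p = 0.00136 by edgeR), under the fold threshold. Its groups did not overlap, as in 36.6% of all genes in that direction. HOXB6 held 10.7, 8.87 and 13.5 CPM against 19.6, 18.8 and 18.9 CPM (log2 0.80, SE 0.17, adjusted p = 0.00073). HOXB3, HOXB4 and HOXB2 were at 0.55, 0.54 and 0.35 with an adjusted p of 0.00486, 0.00677 and 0.0145 by edgeR, all under the fold threshold. With the offsets HOXB4 was at 0.24 (adjusted p = 0.15). HOXB5 held 55.7, 48.3 and 57.1 CPM against 60.1, 59.1 and 61.1 CPM (log2 0.16, SE 0.14, adjusted p = 0.32 by edgeR). Of the HOXA genes, HOXA7 came nearest to the threshold (log2 -1.01, SE 0.42, adjusted p = 0.0513 by edgeR), and 62.5% of its exonic bases are shared with other genes. It was called lower with the offsets (log2 -1.15, adjusted p = 0.0308) and in the fit of only the libraries compared (adjusted p = 0.0299 by edgeR). HOXA3 turned from 0.34 to -0.05 with the offsets and passed the test in neither.

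Dividing-cell markers moved with these differences. MKI67, TOP2A, CCNB1 and CDK1 summed to between 406 and 434 CPM in young cells with the empty vector, 339 and 424 CPM in young cells with TRF2, 52.2 and 63.2 CPM in senescent cells with the empty vector and 29.9 and 34.6 CPM in senescent cells with TRF2. With siLMNB1 they summed to between 200 and 206 CPM. All 4 were called lower in both comparisons of senescent with young cells, with siLMNB1, and with TRF2 in senescent cells. Their part in the HOX results was not tested.

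**Figure D4:**
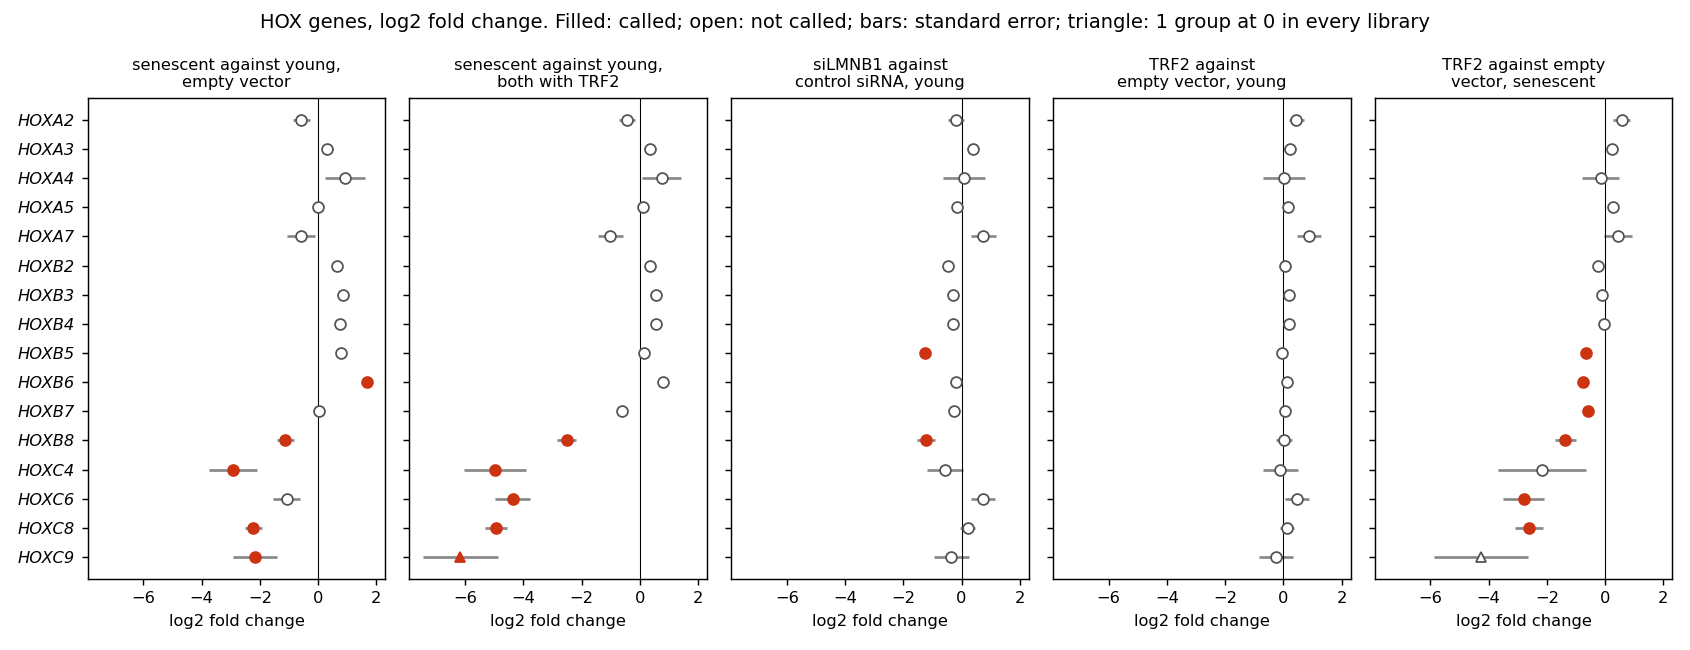
Log2 fold change of the 16 tested HOX genes in 5 comparisons, with standard errors as bars. Filled symbols were called (adjusted p below 0.05, with a fold threshold of 1 for senescence, 0.58 for siLMNB1 and none for TRF2), and triangles mark HOXC9 where 1 group was at 0, whose fitted value is no bound. HOXC8 lies at -2.22 and -4.94 in the senescence comparisons, at 0.21 with siLMNB1 and at 0.12 with TRF2 in young cells.

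The third comparison asked what the loss of Lamin B1 does in young cells. HOXB5 and HOXB8 fell with siLMNB1, 2 of 16 HOX genes (12.5%) beside 8.06% of all genes tested. 0 of 16 rose, beside 10.3% of all genes. Here the fold threshold was 0.58 on the log2 scale, with the same limit on the adjusted p. At the adjusted p alone, 3 HOX genes were lower, beside 16.1% of all genes, and 0 higher, beside 16.4%. HOXB5 held 23.6, 22.7 and 23.2 CPM with siLMNB1, less than the lowest library with the empty vector alone (50.8 CPM), a gap in that direction that 27.9% of all genes showed, and its fall was 1.24 on the log2 scale (SE 0.14, adjusted p = 6.1e-06 by edgeR). HOXB8 held 0.95, 0.773 and 0.967 CPM against 1.6, 2.32 and 2.38 CPM, a fall of 1.22 (SE 0.30, adjusted p = 0.00485 by edgeR). Both remained called in each of the 6 fits that leave out 1 library.

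HOXB2 held 19.9, 20.8 and 23.6 CPM with siLMNB1 and was 0.46 lower on the log2 scale (SE 0.12, adjusted p = 0.00589 by edgeR), under the fold threshold. HOXB3, HOXB4, HOXB6 and HOXB7 lay between -0.30 and -0.18 and did not pass the test. In a fit of only the libraries compared, HOXB3 (adjusted p = 0.00647), HOXB4 (0.0322) and HOXB7 (0.0256 by edgeR) also had an adjusted p below 0.05, so that 6 HOX genes did, still with 2 past the fold threshold. With the offsets HOXB7 did (adjusted p = 0.0177 by edgeR). The HOXB sum was 99.8 CPM ± 7.16 with siLMNB1 and 152 CPM ± 3.82 without (SD, n = 3). The HOXC genes were not lower by the test. HOXC8 held 3.47, 3.46 and 3.43 CPM, each above the 3 libraries without siLMNB1, as in 29.5% of all genes, but its difference was 0.21 (SE 0.25, adjusted p = 0.551 by edgeR). HOXC6 was at 0.74 (SE 0.41, adjusted p = 0.181), HOXC9 at -0.35 (SE 0.59) and HOXC4 at -0.58 (SE 0.62). The comparisons with siLMNB1 and with senescence share the young libraries with the empty vector. HOXB8 was called lower in both, HOXB5 was lower with siLMNB1 and 0.78 higher with senescence, and HOXC8 was 0.21 with siLMNB1 and -2.22 with senescence.

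The fourth comparison, TRF2 against the empty vector in young cells, called 0 of 16 HOX genes. An adjusted p below 0.05 with no fold threshold was met by 0.152% of all genes tested in the higher and 0.0253% in the lower direction. By edgeR's quasi-likelihood test 0 HOX genes had an unadjusted p below 0.05, and DESeq2 also called 0. The largest difference was that of HOXA7 (log2 0.89, SE 0.42, adjusted p = 0.518 by edgeR). HOXB5 was at -0.03 (SE 0.14) and HOXC8 at 0.12 (SE 0.25). HOX sums were 169 CPM ± 3.04 with the empty vector and 179 CPM ± 6.64 with TRF2 (SD, n = 3).

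The fifth comparison set senescent cells with TRF2 against senescent cells with the empty vector. In the fit of all 15 libraries HOXB5, HOXB6, HOXB7, HOXB8, HOXC6 and HOXC8 were lower with TRF2, 6 of 16 (37.5%) beside 6.41% of all genes, and 0 were higher beside 4.87%. These calls rest on the spread shared by all 5 conditions. In a fit of only the 6 senescent libraries 2 genes of the whole table and 0 HOX genes were called, while 5 of the 13 HOX genes tested there had an unadjusted p below 0.05 by edgeR and the smallest adjusted p was 0.111 (HOXB6). In the fit of all libraries DESeq2 called 6 HOX genes, beside 2409 of 15799 genes in all. Leaving out 1 library gave 3 to 8 HOX calls, with 3 (HOXB5, HOXB6 and HOXC8) without replicate 3 of the senescent cells with TRF2 and 8 without replicate 1 of those with the empty vector. The fit with 8 HOX calls also called more genes over the whole table, 4411 of 16265 tested.

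HOXC8 held 25, 12 and 17 counts with the empty vector and 4, 0 and 6 with TRF2, a difference of -2.60 on the log2 scale (SE 0.48, adjusted p = 0.00291 by edgeR), and -2.25 without replicate 1 of the senescent, empty-vector group. HOXC6 held 17, 6 and 9 counts against 4, 0 and 1 (log2 -2.80, SE 0.70, adjusted p = 0.0191 by edgeR). HOXC9 held 0, 2 and 4 counts against 0 in each library, at least 2.31-fold lower with TRF2 at 3 counts, and did not pass the test (adjusted p = 0.108 by edgeR). HOXC4 held 5 counts in all against 1, a ratio of 5.77 with an exact 95% interval from 0.646 to 273.

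HOXB5 held 68.2, 99.3 and 114 CPM with the empty vector and 60.1, 59.1 and 61.1 CPM with TRF2 (log2 -0.64, SE 0.14, adjusted p = 0.00718 by edgeR). The libraries with TRF2 lay close together, those with the empty vector were spread out, and replicate 1 of the latter came nearest to TRF2. HOXB6 held 24.5, 31.4 and 40.2 CPM against 19.6, 18.8 and 18.9 CPM (log2 -0.75, SE 0.17, adjusted p = 0.00946 by edgeR). HOXB7 was at -0.60 (SE 0.14, adjusted p = 0.0142) and HOXB8 at -1.37 (SE 0.36, adjusted p = 0.0221). HOXB5, HOXB6 and HOXC8 stayed called in all 6 fits that leave out 1 library, while HOXB7 and HOXC6 were lost in 2 of them and HOXB8 in 4. In the 6 genes called the groups did not overlap, as in 13.9% of all genes in that direction. HOXB2, HOXB3 and HOXB4 were at -0.23, -0.12 and -0.03 and did not pass the test, and HOXB4 was at 0.21 with the offsets. HOXA5, at 0.27 (adjusted p = 0.161), was at 0.44 with an adjusted p of 0.0155 by edgeR with the offsets.

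**Figure D5:**
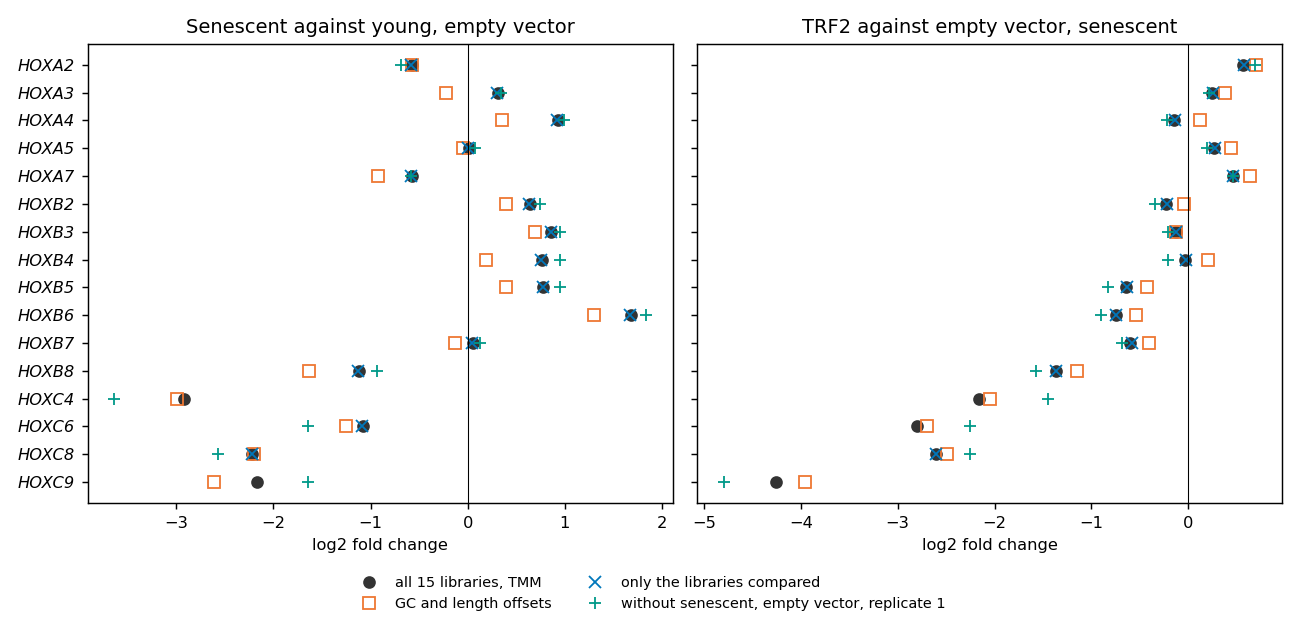
Log2 fold change of the 16 tested HOX genes for senescence with the empty vector (left) and for TRF2 in senescent cells (right), in the fit of all 15 libraries and under 3 other settings. Missing symbols are genes that did not enter that fit. HOXB4 and HOXB5 move toward 0 with the GC and length offsets at left, and fits of only the libraries compared lie on those of all libraries.

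Whether the response to senescence differed with TRF2 was tested by the interaction term. HOXC8 was called, at -2.72 on the log2 scale (SE 0.54, adjusted p = 0.0302 by edgeR), beside 0.956% of all genes lower and 0.177% higher. It was not called in a fit of only the 12 libraries concerned (adjusted p = 0.0774) or in 8 of the 12 fits that leave out 1 library, where its adjusted p ranged from 0.00986 to 0.0851. HOXC6 was at -3.28 (SE 0.82, adjusted p = 0.0665), HOXB6 at -0.89 (SE 0.24, adjusted p = 0.092) and HOXB5 at -0.61 (SE 0.19, adjusted p = 0.14) by edgeR. Without replicate 1 of the senescent, empty-vector group, 6 of 17 HOX genes were called (HOXB5, HOXB6, HOXB7, HOXB8, HOXC6 and HOXC8). That fit called far more genes over the whole table as well, 2089 of 16265 tested.

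The clusters also hold microRNA genes, of which miR-196 is known to target HOX transcripts. MicroRNAs were not measured by these libraries, and the sequences are shown only for what the HOX transcripts that moved and those that did not have in common. The mature sequences (RefSeq, GRCh38, seed of bases 2 to 8 in capitals) share 1 seed. MIR196A2 lies at chr12:53991762-53991783 (plus strand) in the HOXC cluster, MIR196A1 at chr17:48632532-48632553 (minus strand) in HOXB, and MIR196B at chr7:27169528-27169549 (minus strand) in HOXA.
miR-196a-5p: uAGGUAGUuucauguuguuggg
miR-196b-5p: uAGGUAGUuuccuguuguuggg
The complement of that seed on the sense strand, ACTACCT, stands in the annotated 3′ UTR of HOXA5, HOXA7, HOXB6, HOXB7 and HOXC8, 5 of the 16 genes tested, beside 8.21% of 13159 tested protein-coding genes with a 3′ UTR. The 30 bases that end with the first such match of the genes are, 5′ to 3′ on the transcript strand with the match in capitals, HOXC8 at chr12:54011486-54011515 (plus strand), HOXB6 at chr17:48595935-48595964, HOXB7 at chr17:48607615-48607644, HOXA5 at chr7:27141388-27141417 and HOXA7 at chr7:27154601-27154630 (all minus strand).
HOXC8: atagaatgacactcacaactctaACTACCT
HOXB6: caaagccactggaaggagcacatACTACCT
HOXB7: tggtttttcaacactgaaaaaatACTACCT
HOXA5: ctgttaaagatatttttattcaaACTACCT
HOXA7: ccctgctctggcgcgtccaaaatACTACCT
HOXC8 has 3 such matches and HOXA7 has 4. With senescence in cells with the empty vector, these 5 genes took every course, with HOXC8 lower, HOXB6 higher, and HOXA5, HOXA7 and HOXB7 past no threshold. Of the genes called lower there, HOXB8, HOXC4 and HOXC9 hold no ACTACCT in the annotated 3′ UTR of their canonical transcript. Only exact matches were sought, so a gene without this motif may still hold a miR-196 site. A match is a description of letters and not a site in use.

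The start of HOXC4 is the one start of a tested HOXC gene with a RefSeq sequence at hand, and RefSeq gives HOXC4 and HOXC5 this same start. It is shown because HOXC4, which had entered the test through young libraries alone, fell in senescent cells. In the GENCODE annotation HOXC4 begins at chr12:54016931 and HOXC5 downstream at chr12:54033050. Other genes share 67.3% of the exonic bases of HOXC5. The 2 counts of HOXC5 in all 15 libraries therefore do not report on the RefSeq start. The 250 bases before that start lie at chr12:54016638-54016887 (GRCh38.p14, plus strand), with each CG in capitals.
HOXC4: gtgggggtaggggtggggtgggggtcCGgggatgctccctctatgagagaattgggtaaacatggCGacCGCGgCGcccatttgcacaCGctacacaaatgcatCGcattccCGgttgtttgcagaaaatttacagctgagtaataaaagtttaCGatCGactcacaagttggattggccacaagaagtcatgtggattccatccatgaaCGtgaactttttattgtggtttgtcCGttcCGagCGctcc
This stretch holds 14 CG, against a median of 19 over the 27 HOX starts and 11 over all 35116 starts in the same table. Of the 38 HOX genes 20 had such a sequence, and of the 16 tested 5.

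Beside the HOX genes, genes that act with or on them were counted from lists, to be read against the share of all genes called, 16.7% higher and 11.8% lower in senescent cells with the empty vector. The TALE cofactors, which bind DNA together with HOX proteins, were all tested (11 genes). In senescent cells with the empty vector 2 of 11 were called lower, beside 11.8% of all genes, and 0 higher, beside 16.7%. They were MEIS1 (log2 -1.17, adjusted p = 1.6e-08) and MEIS2 (-1.68, adjusted p = 1.6e-08 by edgeR). The same count and genes were found with TRF2 in both, at -1.08 and -1.09, beside 12.1% of all genes lower. With siLMNB1 MEIS2 fell by 1.16 on the log2 scale (adjusted p = 4.4e-06 by edgeR) and MEIS1 was at -0.01. In the fit of all libraries MEIS2 (0.52) and MEIS3 (0.43) were higher with TRF2 in senescent cells.

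Of 27 Polycomb genes, 3 were called higher, beside 16.7% of all genes, and 4 lower, beside 11.8%, in senescent cells with the empty vector. These shares are near those of all genes. Among them were EZH2 (-2.36), the H3K27 methyltransferase, CBX7 (2.06), a reader of that mark, PCGF5 (-1.21) and RBBP4 (-1.15). With TRF2 in both, 2 were higher and 2 lower, beside 11.9% and 12.1% of all genes, with EZH2 at -2.79 and CBX7 at 1.85. With siLMNB1, RNF2 (-1.24), EZH2 (-0.83) and PHC2 (-0.68) were lower and CBX7 (0.64) was higher. Of 14 trithorax-group genes and H3K27 demethylases, PSIP1 (-1.33) fell and KDM6B (1.27), a demethylase of H3K27, rose in senescent cells with the empty vector. The medians of both lists, -0.37 and -0.06, lay near or below the 0.02 of all genes.

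Of 19 genes for retinoic acid supply, breakdown and response 14 were tested. DHRS3 (3.25), ALDH1A1 (2.68) and CYP26B1 (2.17) rose and ALDH1A3 (-2.30) and CRABP2 (-1.52) fell in senescent cells with the empty vector. ALDH1A1 had entered the test through senescent libraries alone and ALDH1A3 through young ones alone, so the filter set the direction of both. ALDH1A2, which reached the minimum in young and senescent libraries, was at -0.34 (adjusted p = 0.376 by edgeR). Of 14 other position genes 8 were tested. PITX1 (1.28), a hindlimb gene, and TBX2 (1.35) rose, and TBX4 (-1.23), a gene of lung and hindlimb mesenchyme, fell, in senescent cells with the empty vector. TBX4 had entered the test through young libraries, with 1 senescent library above the minimum. With siLMNB1 PITX1 fell by 1.05 on the log2 scale.

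Of 15 genes that flank the clusters 9 were tested, of which CALCOCO1 (1.46) rose, 1 beside 16.7% of all genes, and CBX5 (-1.26) fell, 1 beside 11.8%, in senescent cells with the empty vector. Both lie near the HOXC cluster, at opposite ends, and SMUG1, between that cluster and CBX5, was at -0.12. The noncoding genes inside the clusters were mostly too low to test, and 5 of 18 were tested. HOTAIRM1 (1.86, adjusted p = 0.00507), at the 3′ end of HOXA, and HOXB-AS2 (1.76, adjusted p = 0.00914 by edgeR) rose in senescent cells with the empty vector, at 0.531 and 0.656 CPM, 2 of 5 beside 16.7% of all genes. HOTAIRM1 had entered the test through senescent libraries alone. HOXB-AS3, the highest of them, was 0.65 higher (adjusted p = 0.0013 by edgeR), under the fold threshold. HOTAIR, of the HOXC cluster, and HOTTIP, of HOXA, had 0 counts in every library. Antisense genes overlap HOX exons, and with no strand setting stated it is not known how reads from the shared bases were counted or whether they were lost.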

How the data were processed

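RNA sequencing covered 15 libraries of MRC-5 cells, 3 in each of 5 conditions, with groups and replicate numbers taken from the labels. The authors sequenced paired ends, used Trimmomatic for trimming and STAR for mapping to GRCh38, and deposited raw counts per gene, with no normalization. The annotation release and strand setting are not given in the sources used here. Genes were named, placed and measured in length and GC content with GENCODE 44, and 3′ UTRs are those of its canonical transcripts. Levels are CPM after TMM scaling. Tests were edgeR's quasi-likelihood test (edgeR 4.0.16, R 4.3.3) with filterByExpr, 1 model of 5 group means and Benjamini-Hochberg adjustment over 15799 genes. Thresholds followed the authors' cut-offs, with none for TRF2. Offsets for GC content and length came from a loess curve per library (span 0.3), relative to young libraries with the empty vector. Alternatives were DESeq2 1.42.0 and its size factors, fits of only the libraries compared, no filter on low counts, a replicate block, offsets with and without that block, no fold threshold, glmTreat, the length of the longest transcript, and each library left out. Tests and offsets were tested on simulated data. Values in each library are given for members called in a comparison and for the 5 with the highest level per kb, and of a list the called genes are named (up to 5 by size of the log2 fold change). Members and lists were chosen with earlier results of these data known. The naming rule meets 39 genes, of which 1 is not reported here, nor are some called genes of the lists. No microRNA data were analysed here.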

Additional observations from a re-analysis of the deposited data

Results flagged for a closer look

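HOXC8 stood out because its response to senescence differed between cells with the empty vector and cells with TRF2 by the test of the difference itself. The interaction was -2.72 on the log2 scale (SE 0.54, adjusted p = 0.0302 by edgeR's quasi-likelihood test), from 86, 106 and 76 to 25, 12 and 17 counts with the empty vector and from 114, 113 and 104 to 4, 0 and 6 counts with TRF2. Each senescent library with TRF2 lay below each with the empty vector, as in 13.9% of all genes. The call was lost in 8 of 12 fits that leave out 1 library. TRF2, the later PD of these cells and their longer time with the TRF2 vector cannot be told apart.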

How the results depend on the processing

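The 19 gene results called in the fit of all libraries had 272 alternative values, and no direction reversed among these. The call was kept in 245 and lost in 27, 21 of these with 1 library left out and 6 with only the libraries compared. Called genes that did not enter an alternative fit had no value there and are not in that count. Genes not called are not in it either, and some of them changed direction with the offsets, such as HOXA3. For senescence with the empty vector, 3 HOX genes were called with only the libraries compared, 9 with no fold threshold and 8 with glmTreat, and for senescence with TRF2 10 with no fold threshold. TRF2 in senescent cells gave 0 with only the libraries compared. The interaction gave 0 there, 3 with DESeq2 (beside 565 of 15799 genes in all) and 5 with no filter. With 1 library left out the counts ranged from 4 to 6, 5 to 6, 2 to 3 (siLMNB1), 0 to 0 (TRF2 in young cells), 3 to 8 and 0 to 6, in the order of the text. With the length of the longest transcript HOXB2 was at 17.6 and HOXB7 at 12.2 CPM per kb, and with DESeq2's size factors the HOXA sum in young cells with TRF2 was 14.2 CPM, beside an SD of 0.0879. The causes were not tested.

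Replicate numbers did not pair the samples, since correlations of same-numbered libraries exceeded 0.1 in 2 of 30 pairs (-0.0945 to 0.201). The replicate block gave 5, 5, 2, 0, 6 and 1 HOX calls in that order, and the same genes were called. Depth limits the HOXC genes and groups 9 to 13, where a library often held fewer than 10 counts.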

Other observations

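Members too low to test held these counts. HOXA9, a posterior gene, had 1, 4 and 4 counts in young cells with the empty vector, 13, 7 and 3 with TRF2, 4, 3 and 8 with siLMNB1, 0, 4 and 0 in senescent cells with the empty vector and 0, 1 and 1 in senescent cells with TRF2. HOXA6 lay between 0 and 12 counts in all libraries, and its 3 libraries with 12 counts were young cells with TRF2 or siLMNB1. HOXA10 and HOXA11 reached at most 4 counts each. HOXB9 had 7 counts in 1 library of young cells with TRF2 and at most 3 in any other. HOXB13 had counts in senescent libraries only, 3 and 2 with the empty vector and 4 with TRF2, each in a single library. HOXC5 and HOXC13 had 2 counts each over all libraries, all in young cells with the empty vector. None of these counts was tested.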
